A study of Mus musculus with 6 samples.

Results

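Shared intronic regions were stretches of open chromatin that reproducible ATAC-Seq peaks marked in both genotypes of mouse oviductal smooth muscle cells and that lay inside introns. To find them, overlapping entries of the conservative peak list of each genotype were merged, and both lists were then merged with each other. Members were chosen by the peak calls of both genotypes and by position. A merged region was kept when it overlapped entries of both lists, was more than 1 kb away from every annotated transcription start, lay in a gene body and touched no exon. Of 66679 merged regions, 46152 were called in both genotypes, and 15293 of these (22.9% of all regions) were members. The rule used the peak calls of both genotypes, so the presence of members in WT and in Pbrm1 cKO cells was a condition of their choice and not a result. The members nearest to the 1 kb limit, in Tspan11 and Bhlhb9, were each 1001 bases from a start and had mean rank scores (defined below) of 0.80 and 0.57. The nearest regions on the other side of the limit, at 999 and 997 bases, had scores of 0.58 and 0.52 and were not members.

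Introns hold many of the enhancers of mammalian genomes, short stretches of DNA at which transcription factors bind and from which they act on promoters at a distance. In ATAC-Seq the Tn5 transposase inserts sequencing adapters where DNA is not wrapped in nucleosomes, so that an active enhancer appears as a peak with a summit over the bound factors. PBRM1 (BAF180) is a bromodomain subunit of PBAF, a form of the SWI/SNF complex that slides or evicts nucleosomes with energy from ATP. In smooth muscle, regulatory elements of this kind carry motifs of AP-1 (dimers of FOS and JUN proteins), of TEAD factors and of SRF, which drives contractile genes from CArG boxes.

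The series compared WT cells with cells that lacked Pbrm1, with 3 libraries for each genotype. Controls were labelled WT, and the study's text calls its controls Pbrm1 fl/fl littermates, so the control animals may carry floxed alleles. In Pbrm1 cKO mice the Cre recombinase was expressed from the progesterone receptor gene, which deletes Pbrm1 in cells that express this receptor, also outside smooth muscle. All females were 8 to 12 weeks old and on day 2 of pregnancy after mating, and oviduct cells were freed with enzymes, filtered, plated for a few hours and used at 50000 cells per library. The study's text calls the replicates biological, but neither it nor the labels said whether each library came from separate animals or a pool, so p-values measured only the spread between libraries. The accessible regions did not check the deletion itself, and the gene body of Pbrm1 (chr14:31019138-31121592) held 0 members.

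The sequences that the results turned on are given first. They were read from the + strand of the RefSeq reference of GRCm38 (release GRCm38.p6), 5′ to 3′. Capitals mark matches, on either strand, of the motifs named for each sequence. Other searched motifs are not marked, such as the STAT and MEF2 matches in Ccser2. The first and the second are the windows from 100 bases before to 100 bases after the summits of the member with the smallest p-value among those ranked higher in Pbrm1 cKO and of the single member ranked lower. In Ccser2 (chr14:36911190-36911390) the capitals mark an AP-1 match, TGANTCA, and in Rasal2 (chr1:157380726-157380926) a pair of AP-1 matches and 1 RUNX match, TGTGGT. The last is the highest-scoring member of Synpo2 (chr3:123122746-123122946), the contractile gene with the most members, where capitals mark a pair of TEAD matches, GGAATG, read on the other strand as CATTCC.
Ccser2: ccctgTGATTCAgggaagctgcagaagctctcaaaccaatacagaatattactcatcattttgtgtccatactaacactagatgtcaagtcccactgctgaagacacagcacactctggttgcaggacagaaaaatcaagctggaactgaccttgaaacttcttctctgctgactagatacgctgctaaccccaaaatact
Rasal2: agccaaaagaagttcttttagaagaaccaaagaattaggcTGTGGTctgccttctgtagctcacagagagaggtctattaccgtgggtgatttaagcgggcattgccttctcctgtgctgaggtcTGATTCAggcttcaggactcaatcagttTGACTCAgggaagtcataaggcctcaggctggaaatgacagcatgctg
Synpo2: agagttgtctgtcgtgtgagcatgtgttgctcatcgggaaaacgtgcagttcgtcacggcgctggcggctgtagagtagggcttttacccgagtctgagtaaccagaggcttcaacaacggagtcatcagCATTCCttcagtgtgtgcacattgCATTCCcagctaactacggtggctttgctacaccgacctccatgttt

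CTCF is the zinc finger protein that holds the bases of chromatin loops. A pair of members with a CTCF match (capitals, CCA followed after 2 bases by AG and after 2 more by GGC) is shown as 61 bases each, because members with this motif stood apart in rank from the rest. The pair was taken for its high scores and not for a shift, as the rank difference (Pbrm1 cKO minus WT) was 0.050 in M1ap (adjusted p = 0.986) and −0.21 in Pla2g4a (adjusted p = 0.858). They lay in M1ap (chr6:82996806-82996866) and Pla2g4a (chr1:149856849-149856909), the latter encoding the cytosolic phospholipase that releases arachidonic acid for prostaglandin synthesis.
M1ap: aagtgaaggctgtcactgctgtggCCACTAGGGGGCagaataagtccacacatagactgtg
Pla2g4a: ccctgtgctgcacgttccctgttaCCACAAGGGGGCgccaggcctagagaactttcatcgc

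The estrogen receptor palindrome (capitals, GGTCA and TGACC with 3 bases between) is the inverted repeat that estrogen receptor dimers bind. The 7 stretches of 41 bases come from members with this palindrome in which every WT library ranked above every Pbrm1 cKO library, and this motif and these 7 members were singled out after their values were seen. They lay in Soga1 (chr2:157054464-157054504), CT030155.1 (chr17:67615955-67615995), Cacna1c (chr6:118939676-118939716), 1700060C16Rik (chr6:143622592-143622632), Uroc1 (chr6:90355819-90355859), Galc (chr12:98239047-98239087) and Chd9 (chr8:90862700-90862740).
Soga1: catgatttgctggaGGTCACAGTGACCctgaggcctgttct
CT030155.1: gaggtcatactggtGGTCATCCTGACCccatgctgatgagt
Cacna1c: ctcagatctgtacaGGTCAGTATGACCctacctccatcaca
1700060C16Rik: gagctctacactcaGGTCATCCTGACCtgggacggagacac
Uroc1: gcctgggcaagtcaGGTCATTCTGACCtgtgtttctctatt
Galc: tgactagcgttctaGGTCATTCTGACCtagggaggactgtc
Chd9: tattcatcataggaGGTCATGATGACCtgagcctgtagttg

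Within a library, regions were put in order of the highest −log10 p among the entries that overlapped them. The rank score is log2(number of regions / rank), so that the best region of a library has the highest score and a difference of 1 means that the rank number halved. The score is relative to the other regions of the same library and cannot show a change common to all of them. Over the members the median score was 1.19, 1.22 and 1.11 in WT libraries 1, 2 and 3 and 1.24, 1.21 and 1.21 in Pbrm1 cKO libraries 1, 2 and 3. The lowest of the 6 values belonged to WT library 3, whose peaks were also the shallowest. The number of tags over a summit, recovered from the fold and p of each entry, had a median over members of 29, 27 and 15 in the WT libraries and 33, 28 and 29 in the Pbrm1 cKO libraries. Total reads per library were unknown.

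An entry of every library lay over 15099 members (98.7%, against 93.5% of all regions). Of the 192 members that lacked an entry in exactly 1 library, 187 lacked it in WT library 3 and 5 in Pbrm1 cKO library 3. An absent entry means that the region was below the threshold of that list and not that it was closed. Spearman correlations of the member scores were 0.71 to 0.80 over the 6 pairs of libraries of the same genotype and 0.65 to 0.73 over the 9 pairs of different genotypes, all computed across members, which are not replicates. Of 8 smooth muscle markers, 7 had a region within 1 kb of a start (Acta2, Myh11, Cnn1, Tagln, Des, Smtn and Lmod1), and Actg2 had none. Regions lay at the starts of 5 of 9 fibroblast and pericyte markers, 5 of 9 endothelial, 2 of 12 epithelial, 2 of 9 immune and 2 of 4 mesothelial markers. The best mean scores there ranged from 0.48 to 2.76 for smooth muscle, 0.44 to 1.41 for fibroblasts and pericytes, 0.45 to 1.79 for endothelium, 1.72 to 4.02 for epithelium, 0.80 to 1.61 for immune cells and 0.42 to 0.61 for mesothelium. The highest score of an epithelial marker was thus above that of every smooth muscle marker, and the part of other cells in the member values was not tested.

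The members were of middling strength and moderate width. Their mean score over 6 libraries had a median of 1.17, close to that of shared intergenic regions (1.21) and shared exon regions (1.27), and well under that of shared promoter regions (2.58). Intronic regions called in 1 genotype alone ranked lower still, at 0.36 for WT-only and 0.35 for Pbrm1 cKO-only regions. Such an order follows in part from the rule, since a call in both lists asks for a strong peak in both. The members covered 8.38 Mb and had a median width of 513 bases (middle 50% of members 358 to 700), against 776 bases for shared promoters. The fold enrichment at the summit had a median of 10.2 in the WT list and 12.1 in the Pbrm1 cKO list, both from pooled reads.

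**Figure D1:**
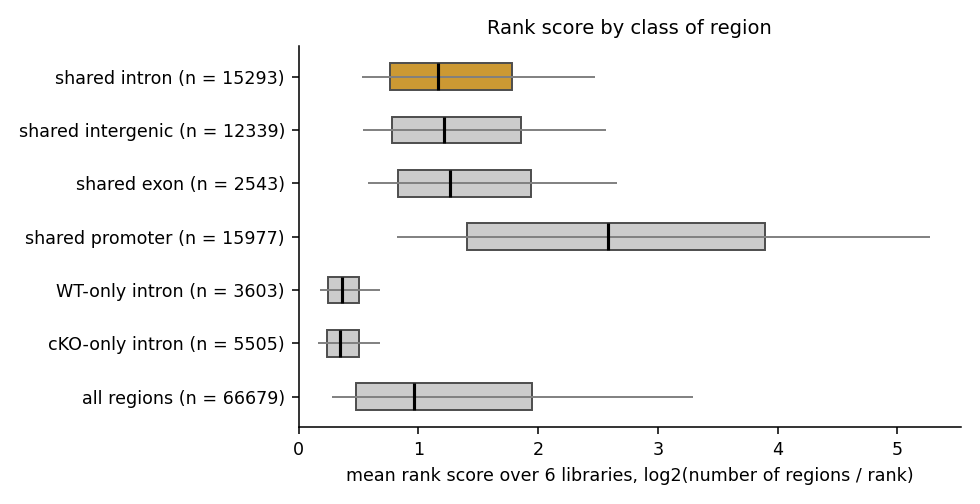
Mean rank score over the 6 libraries for each class of region. Boxes span the middle 50% of regions, black lines are medians, and gray lines run from the 10th to the 90th percentile. Shared intronic regions (gold, median 1.17) lie beside shared intergenic and exon regions, below shared promoters (2.58) and above intronic regions called in a single genotype.

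The summits of both genotypes fell on nearly the same base. The distance between the WT and the Pbrm1 cKO summit of a member had a median of 7 bases, and it was 20 bases or less in 75.4% of members. The windows of 100 bases to each side of the summits had a median GC content of 48.8%, against 62.7% at shared promoters and 50.7% over all regions. Repeat-masked sequence made up at least 50% of the window in 324 members (2.12%), and 7480 members (48.9%) had no masked base.

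The members were spread over 6187 host genes, and 89.1% lay in protein-coding genes. Of 21938 protein-coding genes, 5427 (24.7%) held at least 1 member. The first intron of the host transcript held 34.3% of the 14583 members with an intron number (95% Wilson interval 33.5% to 35.1%, for counting error only), while first introns made up 26.7% of the intron length of the host transcripts. The same share was 35.4% (33.8% to 37.0%) for WT-only and 29.6% (28.4% to 30.9%) for Pbrm1 cKO-only intronic regions. Each genotype had 1 list, so this difference between the genotypes could not be tested. The distance to the nearest transcription start had a median of 15003 bases, with 10.7% of members between 1 and 3 kb away, 26.6% from 3 to 10 kb, 35.7% from 10 to 30 kb, 23.5% from 30 to 100 kb and 3.57% farther off.

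Members came in groups along large genes. The 787 host genes with at least 5 members held 41.7% of all members, and 2603 clusters of 2 or more members at most 10 kb apart held 6272 members. The largest cluster was a run of 13 members over 39.7 kb of Firre, an X-linked noncoding RNA gene with repeated elements, where 6 members were above 0 in rank difference (Pbrm1 cKO minus WT). The next was a run of 10 members over 47.1 kb under the Gm20388 model, of which 6 were above 0. The 10 host genes with the most members were Gm20388 (143), Fgfr2 (53), Pde4d (32), Dlc1 (25), Dlgap1 (23), Lpp (23), Arhgap26 (22), Ltbp1 (22), Foxp1 (21) and Maml2 (21). The annotated bodies of Gm20388 (4435 kb) and Fgfr2 (2961 kb) run across neighbouring genes, and 937 members (6.13%) lay under more than 1 gene. Counted by gene length, Dlc1, a GTPase-activating protein, held 6.49 members per 100 kb and Ltbp1, which stores latent TGF-β in the matrix, 5.69, against 1.27 over all protein-coding genes.

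AP-1 motifs were the most common of the 17 motifs searched. The AP-1 motif TGANTCA occurred in the summit window of 7240 members (47.3%, 95% Wilson interval 46.6% to 48.1%), against 34.0% of all regions, 44.0% of shared intergenic, 36.3% of shared exon and 10.0% of shared promoter regions. In intronic regions called in WT alone and in Pbrm1 cKO alone the share was 39.6% and 42.9%. The share was higher in each stronger group when members were put into 4 groups of equal size by mean rank score, at 39.1%, 44.7%, 47.8% and 57.7%. The median score was 1.28 in members with the motif and 1.08 in the others. In 4 groups of equal size by GC content the share was 54.9% where GC was lowest and 35.2% where it was highest.

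The matches gathered at the summits. Within the 40 central bases, AP-1 matches were 8.91 times as dense as over the outermost 200 bases of a 1000-base window. TEAD matches (18.6% of members, 15.5% of all regions) were 2.09 times and RUNX matches (18.6% and 15.6%) 1.52 times as dense at the centre, and the E-box CAGCTG (15.8% and 14.6%) 1.99 times. GATA matches, AGATAA (9.95% and 8.31%), were less dense at the centre than outside, at 0.63 times. CTCF matches (8.82% of members, 12.0% of shared intergenic regions, 8.38% of all regions) were placed to both sides of the summit, with the densest bin at 40 to 60 bases. AP-1 and CTCF matches seldom shared a window, since 2.07% of members with AP-1 had CTCF, against 14.9% of those without. No motif of the 17 was found in 1895 members (12.4%).

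**Figure D2:**
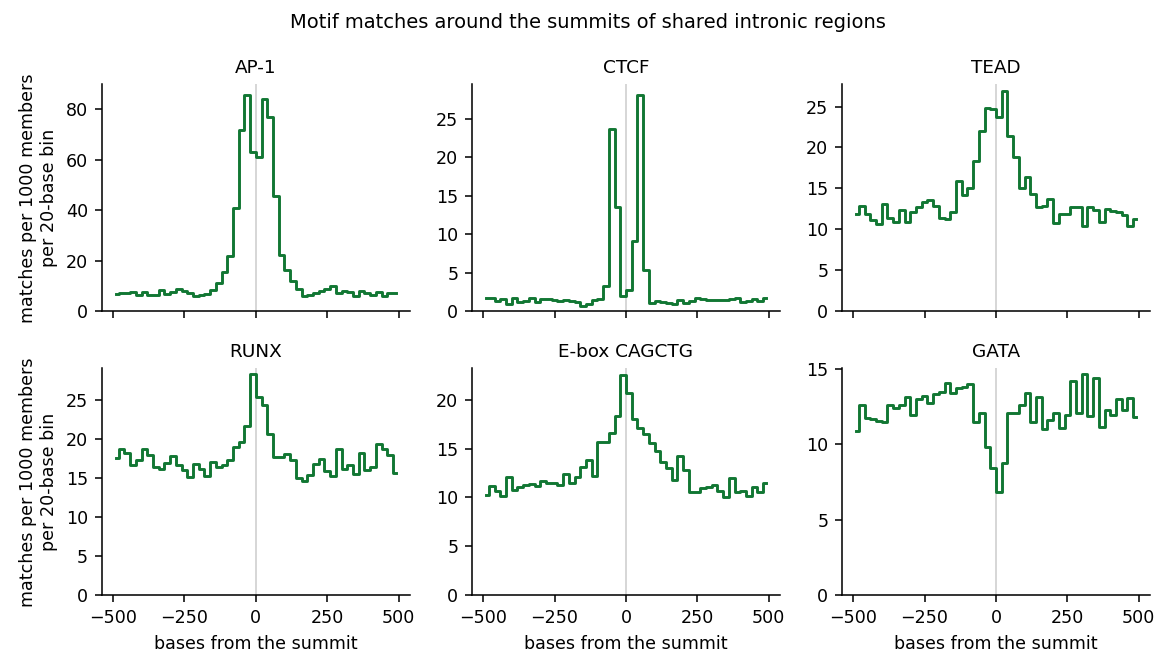
Matches of 6 motifs per 1000 members in bins of 20 bases from 500 bases before to 500 bases after the summit, both strands counted. TEAD, RUNX and E-box matches peak near the summit. AP-1 matches are highest at 20 to 40 bases to either side (85.9 and 84.2) and lower in the central bins (63.2 and 61.3). CTCF matches form a pair of peaks on either side of the summit, and GATA matches dip at it.

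To ask whether accessibility of the members differed between the genotypes, limma was fitted to the rank scores of all 66679 regions. The libraries of the genotypes did not overlap in 2723 members, 1493 of them higher and 1230 lower in Pbrm1 cKO (9.76% and 8.04% of members, against 10.6% and 10.9% of all regions). An unadjusted p under 0.05 was found for 1597 members (10.4%, against 15.9% of all regions). The adjusted threshold of 0.05 was passed by 6 members (background 0.0675% of all regions), 5 that ranked higher in Pbrm1 cKO (background 0.039%) and 1 that ranked lower (background 0.0285%). Since members were required to be called in both genotypes, nothing is read from these counts. The median rank difference over the members was 0.022, against 0.00055 over all regions, and it was −0.020 without WT library 3. The counts also moved with the scale, to 80 higher and 39 lower members when ranks were turned into normal scores (backgrounds 0.993% and 1.33%). They were 0 and 0 with ranks by fold enrichment (backgrounds 0.006% and 0%), where 1401 members had an unadjusted limma p under 0.05 (background 14.9%).

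The largest difference among the 6 members past the threshold was in intron 5 of Ccser2 (chr14:36911083-36912104). Its scores were 0.56, 0.24 and 1.09 in WT libraries 1, 2 and 3 and 4.06, 4.58 and 3.50 in the Pbrm1 cKO libraries, from 17, 12 and 14 tags against 109, 108 and 88 tags at the summit. All Pbrm1 cKO libraries stood far above all WT libraries, and the groups did not overlap. The rank difference was 3.42 (SE 0.37, adjusted p = 0.00103), and it passed the threshold in each of the 6 fits that left out a library. The region lay 5.84 Mb from Pbrm1 on the same chromosome.

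Another 3 of the higher members lay in genes of microtubules, muscle and mitochondria. In intron 24 of Agtpbp1 (chr13:59460885-59461700), whose product trims glutamates from tubulin, the scores were 0.62, 0.24 and 0.36 in WT and 2.07, 2.24 and 2.28 in Pbrm1 cKO. In intron 5 of Myoz2 (chr3:123007303-123007779), which encodes a Z-disc protein of striated muscle that binds calcineurin, they were 1.52, 1.46 and 1.05 against 3.30, 3.20 and 3.20. In intron 37 of Vwa8 (chr14:79114641-79115295), which encodes a mitochondrial protein, they were 0.47, 0.79 and 0.36 against 2.37, 2.36 and 2.19. All 3 had groups without overlap, differences of 1.79, 1.89 and 1.77 and an adjusted p of 0.0434. None of the 3 passed in any fit that left out a library, with a lowest adjusted p of 0.0588, 0.0652 and 0.0660.

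The single lower member lay in intron 1 of Rasal2 (chr1:157380510-157381128), which encodes a GTPase-activating protein of Ras. Its scores were 2.74, 2.95 and 2.81 in WT and 1.02, 0.88 and 1.29 in Pbrm1 cKO, from 49, 48 and 29 tags against 24, 19 and 25. The WT libraries were all above the Pbrm1 cKO libraries, and the part of depth in this was not tested. The difference was −1.77 (SE 0.32, adjusted p = 0.0434), and it did not pass in any fit without a library (lowest adjusted p = 0.0587). The next members in this direction, in Ankrd6 (−1.54), which acts in Wnt signalling, and in Gm48957 (−1.69), did not pass (adjusted p = 0.0721 for both). Over the alternatives the adjusted p of limma ran from 0.00680 to 0.217 for Ankrd6 and from 0.00599 to 0.217 for Gm48957, and both passed with normal scores, among the upper part of the regions and with the replicate block.

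Of the 6 members past the threshold, 3 lay on chromosome 14, the chromosome of Pbrm1, which held 609 members (3.98%). Those in Ccser2 and Vwa8 were 5.84 and 48.0 Mb from the gene, and within 20 Mb of it 1 of 270 members was called, against 4 of 984 regions of any class (background 0.0675% of all regions). The part of nearness to Pbrm1 in these differences was not tested. An AP-1 match was present in 5 of the 6, against 47.3% of all members and 34.0% of all regions. Nothing is read from this count, and in Ccser2 the match lay near the edge of the window. None of the 6 windows had a second copy in the chromosomes at 90% identity or more.

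**Figure D3:**
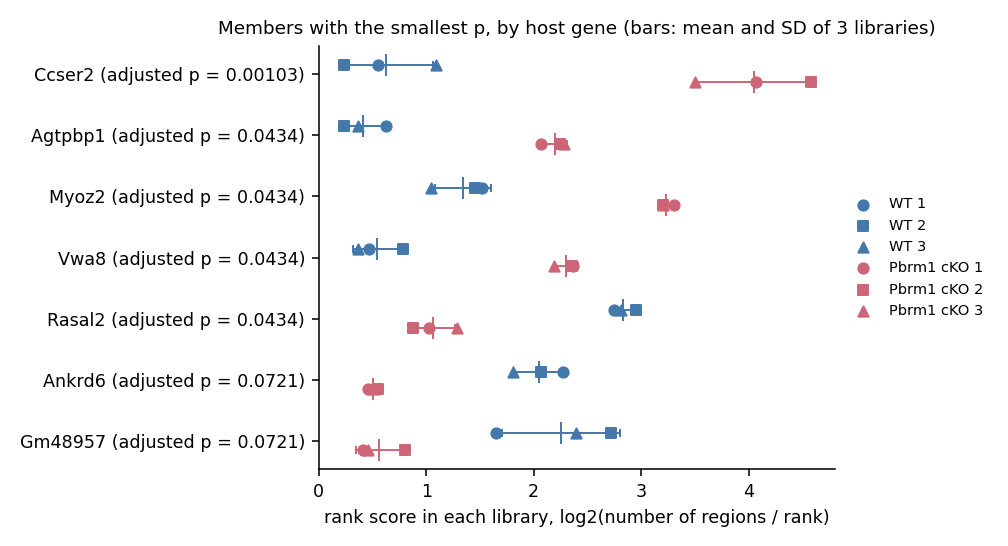
Rank scores in the 6 libraries for 5 of the 6 members past the adjusted threshold and the 2 lower members nearest to it, named by host gene. Blue symbols are WT and red symbols Pbrm1 cKO libraries, vertical ticks are group means and bars SD (n = 3). Ccser2 shows the widest gap, 0.63 against 4.05, and in none of the 7 members do the genotypes overlap.

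The strongest members were few and partly of uncertain origin. The highest mean score, 13.3, belonged to a region in AC115970.1 (chr10:96077585-96077914), whose window matched the mitochondrial genome over its whole length, so that reads of the region and of mitochondrial DNA cannot be told apart. A region in intron 9 of Mid1 (chrX:169996916-169998565) had scores of 5.82, 6.73 and 8.79 in WT and 11.1, 12.2 and 11.2 in Pbrm1 cKO (difference 4.39, SE 1.70, adjusted p = 0.221), and its window had another copy at 100% identity. Windows in Cldn34d and Catspere2 also had a further copy each, at 90.8% and 98.0% identity. Without such a copy were members in Gm29683 (6.93), Arid1b (6.73), Gm16675 (6.70) and M1ap (6.48), and none of these differed past the threshold. The Arid1b region, in intron 4 of a gene for a subunit of the BAF form of SWI/SNF, had scores of 8.00, 6.31 and 7.62 in WT and 6.45, 5.92 and 6.06 in Pbrm1 cKO (difference −1.17, SE 0.77, adjusted p = 0.484).

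Members that held a CTCF match ranked higher in Pbrm1 cKO libraries than in WT libraries as a group. Their median score was 1.01, 1.03 and 0.94 in WT libraries 1, 2 and 3 and 1.14, 1.15 and 1.20 in the Pbrm1 cKO libraries, so that the 3 medians of each genotype did not overlap. In members without the match the medians were 1.21, 1.24 and 1.13 against 1.25, 1.21 and 1.21, which did overlap. Of 1349 members with CTCF, 65.8% were above 0 in rank difference, with a median of 0.13, against 51.1% and 0.010 of members without. Of the 1349, 161 were without overlap upward and 46 downward. Over all regions the shares were 10.6% and 10.9%, so the upward share was near its background and the downward share below it. No single one passed the adjusted threshold. An unadjusted limma p under 0.05 was found for 112 (8.30%, background 15.9%), and 4 passed upward with normal scores (background 0.993%).

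CTCF members were narrow, with a median width of 308 bases. In the narrowest 25% of members the median difference was 0.11 with and 0.027 without a match, in the middle 50% it was 0.14 and 0.021, and in the widest 25% it was 0.25 and −0.027. Members with CTCF had the higher median in each of these width groups, and the part of width in the shift was not tested. Without WT library 3 the median was 0.10 with a match and −0.033 without. With ranks by fold enrichment it was 0.19 and −0.020. Regions outside introns behaved likewise, with medians of 0.12 in shared intergenic (64.2% above 0), 0.14 in shared exon (68.8%) and 0.070 in shared promoter regions (56.7%), and 0.12 over all regions with the motif. The shift was thus seen in each shared class, and no test of it was made, because the motif group was picked with the values known and members are not replicates.

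**Figure D4:**
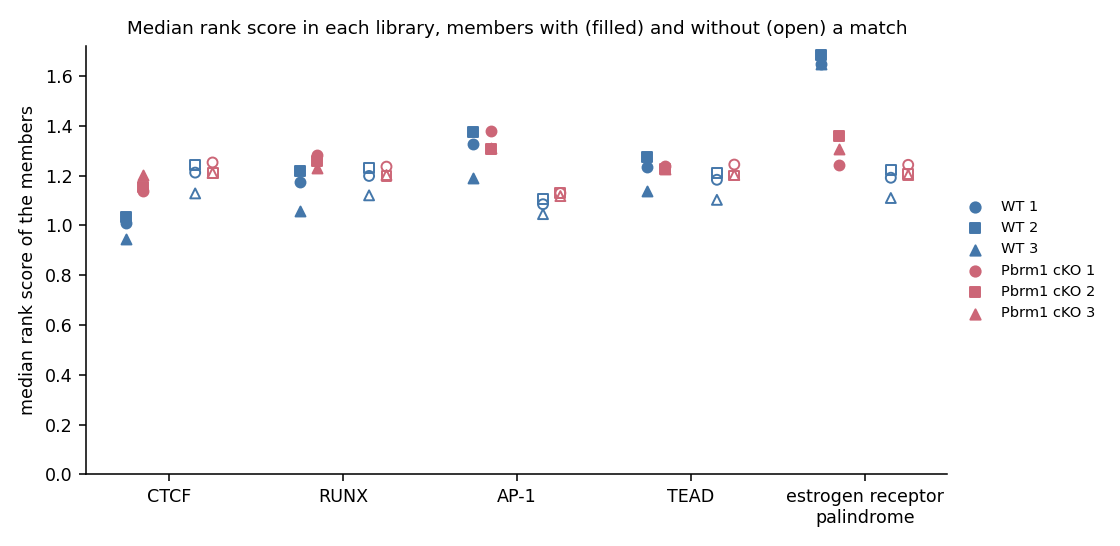
Median rank score in each library over members with (filled) and without (open) a match of 5 motifs. For CTCF the filled red symbols (Pbrm1 cKO, 1.14 to 1.20) lie above the filled blue ones (WT, 0.94 to 1.03), for the estrogen receptor palindrome the filled red symbols (1.24 to 1.36) lie below the blue ones (1.65 to 1.68), and for AP-1 they are mixed.

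The estrogen receptor palindrome showed the opposite direction in a small group. It occurred in 22 members (0.144%, against 0.154% of all regions), each in a different host gene. These had a median width of 816.5 bases against 513 in members without the palindrome, and a median mean score of 1.55 against 1.17. The part of width and score in the direction was not tested. The median score of the 22 was 1.65, 1.68 and 1.65 in the WT libraries and 1.24, 1.36 and 1.31 in the Pbrm1 cKO libraries, without overlap. The rank difference was below 0 in 21 of 22, with a median of −0.19 against 0.023 in the members without the palindrome. In 7 members every WT library was above every Pbrm1 cKO library and in 0 the reverse (backgrounds 10.9% and 10.6%). None passed the adjusted threshold in limma (background 0.0675%), and 3 had an unadjusted p under 0.05 (13.6%, background 15.9%). With normal scores 1 passed downward (background 1.33%).

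Soga1 held the member with the widest gap, in intron 2 (chr2:157054295-157055075). Its scores were 2.41, 3.87 and 2.33 in WT and 1.07, 0.95 and 1.05 in Pbrm1 cKO, a difference of −1.85 (SE 0.39, adjusted p = 0.0793). WT library 2 was the highest, and the lowest WT library was still above all Pbrm1 cKO libraries. In intron 3 of Cacna1c, the pore subunit of the L-type calcium channel that admits calcium for contraction, the scores were 1.58, 1.70 and 1.85 in WT and 0.65, 1.14 and 1.25 in Pbrm1 cKO (difference −0.70, SE 0.32, adjusted p = 0.298). In CT030155.1 they were 1.08, 1.32 and 1.36 against 0.71, 0.59 and 0.28 (difference −0.73, SE 0.28, adjusted p = 0.215).

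The other 4 members without overlap lay in 1700060C16Rik (difference −0.66), in Uroc1, the urocanate hydratase of histidine breakdown (−0.64), in Galc, the lysosomal galactosylceramidase (−0.50), and in the chromatin remodeler gene Chd9 (−0.19). Their adjusted p ran from 0.326 to 0.685. Lrrc9 was the only 1 of the 22 above 0, at 0.0089. An AP-1 match lay in 8 of the 22 windows and 1 window was masked as repeat over more than 50%.

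With normal scores 21 of 22 were again below 0, but the exception was 5031439G07Rik (0.035) in place of Lrrc9 (−0.0044), and with ranks by fold enrichment 18 of 22 were below 0. In the 6 fits that left out a library the median ran from −0.35 to −0.21, and 2 to 4 members were above 0. Outside introns the palindrome was found in 35 shared intergenic regions, of which 14.3% were above 0 (median −0.38), and over all 103 regions with it 15.5% were above 0 (median −0.29). The palindrome of the glucocorticoid and progesterone receptors, GNACA and TGTNC with 3 bases between, was in 55 members, of which 61.8% were above 0 (median 0.065). The direction was thus not shared by both receptor palindromes, and no test of this was made.

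**Figure D5:**
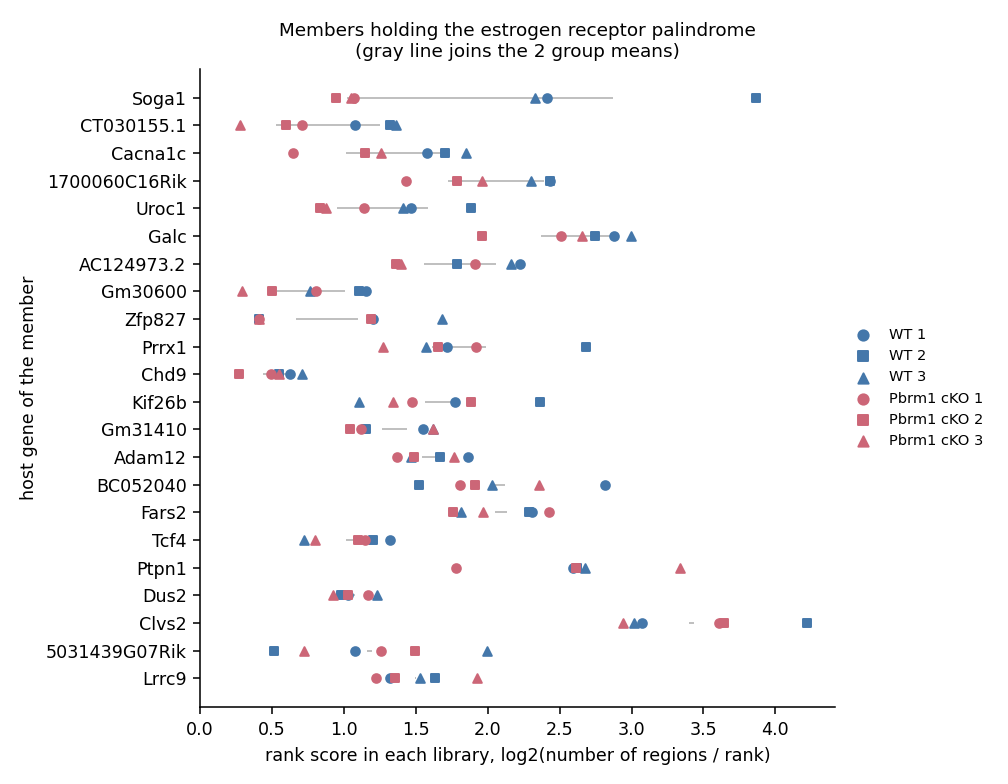
Rank score in each of the 6 libraries for the 22 members with the estrogen receptor palindrome, ordered by rank difference, with gray lines joining the WT and Pbrm1 cKO means. Blue WT symbols lie to the right of red Pbrm1 cKO symbols without overlap in 7 members, Soga1 having the widest gap (−1.85), and Lrrc9 at the bottom is the only member above 0.

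Other motif groups moved less. Of 2840 members with RUNX, 57.0% were above 0, with a median of 0.063 that was 0.014 without WT library 3. Of the 2840, 334 were without overlap upward and 196 downward (backgrounds 10.6% and 10.9%). Of members with AP-1, 51.1% were above 0, with medians in the libraries of 1.33, 1.38 and 1.19 against 1.38, 1.31 and 1.31. NFI matches, TGGC and GCCA with 5 bases between, were in 208 members, of which 62.5% were above 0 (median 0.11, but 0.029 without WT library 3). CArG boxes were in 194 members with 45.4% above 0.

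Genes of the contractile apparatus held 1.09 members per 100 kb of gene body, against 1.27 over all protein-coding genes. None of the members in the gene lists differed past the adjusted threshold. The 21 gene lists together held 1004 members, of which 0 passed the adjusted limma threshold in either direction (backgrounds 0.039% and 0.0285%). Of these members, 100 had an unadjusted p under 0.05 (9.96%, background 15.9%). With normal scores 2 passed upward and 2 downward (backgrounds 0.993% and 1.33%). Of 25 contractile genes, 16 held 54 members, most of them Synpo2 with 9, an actin-binding protein of the Z-disc and of dense bodies. Acta2, Actg2, Cnn1, Des, Myl9, Smtn, Tagln, Tpm1 and Fhl1 held none. The 54 members had a median difference of −0.12 (members 0.022), and 6 were without overlap upward and 6 downward (22.2%, background 21.5%). AP-1 was present in 29.6% of them, against 47.3% of all members.

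The strongest member of Synpo2, in intron 1 (chr3:123122325-123123090), had scores of 4.12, 3.71 and 3.46 in WT and 2.73, 2.07 and 2.50 in Pbrm1 cKO. All WT libraries were above all Pbrm1 cKO libraries, with a difference of −1.33 (SE 0.37) that did not pass (adjusted p = 0.114). Of the 9 members of the gene, 3 were without overlap downward and 0 upward (backgrounds 10.9% and 10.6%).

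The transcription factors that act on these genes held more members by length. Of 25 regulators of smooth muscle, 21 held 139 members, or 3.76 per 100 kb of gene body against 1.09 for the contractile genes. Foxp1, a forkhead repressor, held 21, the SRF coactivator Mrtfa 15, Nfia and Nfib 14 each, the TEAD factor Tead1 12, and Smad3, which carries TGF-β signals, 11. Srf itself, Gata6, Klf4 and Tead3 held none. The strongest member of Foxp1 had scores of 2.72, 3.11 and 2.15 in WT and 3.83, 3.08 and 3.62 in Pbrm1 cKO (difference 0.85, SE 0.38, adjusted p = 0.292), and the groups overlapped. Of 12 AP-1 factors, which are mostly short genes, 3 held members (Atf3 2, Batf 2 and Junb 1). The strongest of Atf3 scored 3.50, 3.52 and 2.92 in WT and 3.09, 2.91 and 3.94 in Pbrm1 cKO, with almost equal means of 3.31. The 5 members had a median difference of −0.97, and 2 of them, 1 in Atf3 and 1 in Batf, were without overlap downward and 0 upward (backgrounds 10.9% and 10.6%). An unadjusted p under 0.05 was found for 3 of the 5 (background 15.9%), and none passed the adjusted limma threshold.

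Steroid receptor genes held 2.26 members per 100 kb and channel genes of contraction 1.47, against 1.27 over all protein-coding genes. Esr1, the gene of estrogen receptor α, held 19 of the 26 members in steroid receptor genes, while Pgr held 2 and Esr2 none. Of the 19, none was without overlap upward and 3 downward (backgrounds 10.6% and 10.9%), with a median difference of 0.0058. Cacna1c held 17 of 92 members in 22 channel genes, followed by the inositol trisphosphate receptor Itpr1 with 11 and the potassium channel Kcnma1 with 10. The strongest member of Cacna1c was steady, at 2.77, 2.53 and 2.86 in WT and 2.83, 2.83 and 2.76 in Pbrm1 cKO. Agonist receptors of contraction held few, 12 members in 7 of 19 genes, and Oxtr and Ptgfr held none.

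Prostaglandin genes held 36 members in 8 of 17 genes. Pla2g4a held 8, thromboxane synthase Tbxas1 7, the prostaglandin E synthase Ptges and the transporter Slco2a1 5 each, and prostacyclin synthase Ptgis 4. The strongest member of Pla2g4a scored 4.19, 2.52 and 3.04 in WT and 3.19, 3.05 and 2.87 in Pbrm1 cKO (difference −0.21, SE 0.42, adjusted p = 0.858). Only 1 of the 36 was without overlap in each direction (5.56%, background 21.5%). In the relaxation list Pde4d, which degrades cAMP, held 32 of 69 members, and its strongest, at 4.03, 4.15 and 4.05 against 4.28, 3.56 and 4.26, overlapped between genotypes.

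Genes of actin regulation, of the matrix and of TGF-β signalling also held many members for their length, as most of the gene lists did. Only the contractile, agonist receptor and immune lists, at 1.09, 0.90 and 0.85 per 100 kb, were below the value over all protein-coding genes. Prostaglandin genes held 3.80 and AP-1 factors 3.28 per 100 kb. Actin regulators held 128 members (3.04 per 100 kb, against 1.27 over all protein-coding genes), led by Dlc1 with 25 and Lpp, a focal adhesion protein, with 23. Of these 128, 17 were without overlap upward and 13 downward (23.4%, background 21.5%). Collagen genes held 73 (3.96 per 100 kb), with 10 each in Col18a1 and Col4a2, and genes of the TGF-β and BMP pathway 81 (3.63 per 100 kb), with 22 in Ltbp1 and 14 in the coreceptor gene Tgfbr3. In the TGF-β and BMP list 4 were without overlap upward and 12 downward (19.8%, background 21.5%). Integrin and laminin genes held 55, the Wnt list 54 with Ror1 first at 10, and the FGF list 77, of which 53 lay under the long Fgfr2 model.

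Of 23 SWI/SNF subunit genes, 11 held 37 members, 13 of them in Arid1b. Homeobox and mesenchyme factors of the Müllerian duct held 31 members in 5 of 23 genes, 8 of them in Meis1 and 7 in Wt1, and the HOX genes of the list held none. Marker genes of other cell types also held members, 18 in 7 of 11 endothelial genes and 15 in 6 of 14 fibroblast and pericyte genes. There were 10 in 3 of 6 mesothelial genes, 7 in 4 of 13 epithelial genes and 4 in 4 of 10 immune genes. Per 100 kb the mesothelial genes held 9.22, the highest of all lists. The fibroblast and pericyte genes held 2.99, the endothelial 1.85, the epithelial 1.81 and the immune genes 0.85. The strongest member of Fbln1, a matrix gene of fibroblasts, scored 2.48, 2.26 and 2.40 in WT and 1.46, 1.57 and 1.25 in Pbrm1 cKO (difference −0.95, SE 0.32, adjusted p = 0.159). That of the endothelial factor Erg scored 2.31, 2.37 and 3.02 against 2.18, 1.34 and 2.00, and that of Cdh1, the epithelial cadherin, 1.18, 1.36 and 0.49 against 1.76, 1.52 and 2.39. The strongest members of Esr1, Adra1b, Dlc1, Col18a1, Itgb5, Ltbp1, Fgfr2, Ror1, Wt1 and Csf1r had differences between −0.57 (Itgb5) and 0.40 (Dlc1) and adjusted p from 0.451 to 0.925. In these cell mixtures more cells of a type and more open chromatin per cell could not be told apart.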

How the data were processed

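ATAC-Seq peak lists of 6 libraries from primary oviductal smooth muscle cells (3 WT, 3 Pbrm1 cKO) and 1 conservative list per genotype were used, grouped by the sample labels. Per the study's methods, the authors ran the ENCODE ATAC-Seq pipeline 1.9.0, and the submitters' processing notes name cutadapt, Bowtie2, MACS2 and the build GRCm38.p5. The library lists were called at a p of 0.01 and capped at 300000 entries, and the conservative lists passed an irreproducible discovery rate of 0.05 on pooled reads. The authors deposited for each entry a fold enrichment (a ratio to local background), a −log10 p, a −log10 q and a rescaled score. The summit offset is a position in bases. The deposited files held no read counts, so the read count test of the study's methods was replaced by ranks, and total depth is unknown. Tags at the summits of members were recovered from the deposited fold and −log10 p. All were whole within 0.02 in −log10 p, leaving out the member of highest mean score, in AC115970.1. Intervals cover counting error only.

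Regions within 1 kb of a GENCODE M21 (basic set) transcription start, exons and gene bodies were found on GRCm38 coordinates, counted from 1. The host was the longest protein-coding gene over a region. limma 3.58.1 in R 4.3.3 (lmFit, eBayes with trend) took as input the rank score, log2(number of regions / rank), with Benjamini-Hochberg adjustment over all 66679 regions, two-sided. On simulated data in which 200 regions were changed 4-fold in −log10 p, the rank score recovered 105 (52.5%) and normal scores 164 (82%). Of the unchanged regions 1 was called with the rank score and 14 with normal scores, so a change of that size could be missed on the main scale. A region without an entry took the lowest rank. Motifs were searched on both strands within 100 bases of the conservative summit with Python 3.11.15, and copies with blastn 2.17.0 (90% identity over 181 bases). Named were the 8 members of highest score, up to 6 past the threshold in each direction (3 with the smallest p where fewer passed), the 10 hosts with the most members, the strongest member of the top gene of each list, and 2 regions on each side of the 1 kb limit. The members of the estrogen receptor palindrome were named after their values were seen. Alternatives were normal scores, ranks by fold, entries in all libraries, the upper part of the regions, a replicate block, each library left out, a 3 kb limit, protein-coding starts, a 50% overlap, other windows and the comprehensive annotation. Results for a few of these genes are not reported here. Members, gene lists and motifs were chosen with earlier results of these data known.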

Additional observations from a re-analysis of the deposited data

How the results depend on the processing

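Of 184 alternative values, 93 were labelled the same, 50 moved, 35 lost and 6 gained significance, and 0 reversed. Counts were the same within a fixed fold, and shares within the Wilson interval. Medians were the same within the spread of library medians, and single members on the same side of the threshold. A median smaller than that spread could not be labelled reversed. The median over all members, 0.022, became −0.020 without WT library 3 and −0.0066 with ranks by fold enrichment. Members past the adjusted limma threshold, 5 higher and 1 lower in Pbrm1 cKO (backgrounds 0.039% and 0.0285% of the regions tested), became 80 and 39 with normal scores (backgrounds 0.993% and 1.33%). They were 14 and 6 among the upper part of the regions (backgrounds 0.12% and 0.072%). With ranks by fold enrichment they were 0 and 0 (backgrounds 0.006% and 0%), where 1401 had an unadjusted p under 0.05 (background 14.9%). Leaving out single libraries gave 1 to 2 and 0 (backgrounds 0.003% to 0.0075% and 0% to 0.0225%), with 1133 to 1564 at an unadjusted p under 0.05 (backgrounds 11.8% to 16.6%). With normal scores, chosen after seeing the data, it gave 40, 81, 88, 4, 11 and 21 higher and 4, 9, 28, 4, 13 and 20 lower members without WT libraries 1 to 3 and Pbrm1 cKO libraries 1 to 3 in turn. The backgrounds there ran from 0.063% to 1.36% for higher and from 0.163% to 1.3% for lower regions. The replicate block gave 12 and 4 (backgrounds 0.099% and 0.0975%), and with normal scores 88 and 42 (backgrounds 0.894% and 1.23%). The labels do not say whether the replicate numbers pair the samples. Deviations of same-numbered libraries correlated at −0.0029, −0.055 and 0.0091, which cannot show whether they were paired. The median difference of members with the estrogen receptor palindrome, −0.19, ran from −0.35 to −0.21 without single libraries, and from −0.25 to −0.13 with normal scores as well (−0.23 without Pbrm1 cKO library 3). That of members with CTCF, 0.13, was 0.19 with ranks by fold and 0.085 to 0.14 with normal scores without single libraries, the lowest without WT library 3. The first-intron share of 34.3% became 31.6% beyond 3 kb and 40.3% when the first intron of any transcript counted. The AP-1 share of 47.3% became 32.8% within 50 bases of the summit, 52.3% within 200 bases, 36.3% around the midpoint, 39.3% for TGACTCA alone and 50.4% in the upper part of each list. The cause of these changes was not tested. The number of members was 13657 with a 3 kb limit, 10567 in the upper part of each list, 14252 with protein-coding starts, 15291 with a 50% overlap and 14001 with the comprehensive annotation. The other 30 named regions passed no threshold under any of 9 settings, and 14 kept their sign. Depth was known only as tags over summits, and WT library 3, with a median of 15, lacked 187 of the 192 entries missing from a single library; the part of depth in this was not tested.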
